A study of Mus musculus with 6 samples.

Results

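The mitochondrial calcium uniporter and calcium exchange genes are 9 of the 27179 genes listed in each of 6 RNA-seq libraries of mouse quadriceps muscle. They were taken by symbol: the uniporter pore *Mcu*, its channel partners *Smdt1* and *Mcur1*, the gatekeepers *Micu2* and *Micu3*, the exchangers *Letm1* and *Slc8b1*, the outer membrane channel *Vdac1*, and *Ppif*, which encodes a regulator of the permeability transition pore. All 9 were found once in every library, and all 9 were among the 16483 genes that passed the filter on low counts. Calcium released from the sarcoplasmic reticulum of a muscle fibre crosses the outer mitochondrial membrane through VDAC channels and enters the matrix through the uniporter, where it stimulates dehydrogenases that feed the respiratory chain. Gatekeeper proteins keep the pore closed at resting calcium, and exchangers of the inner membrane carry calcium out again.

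The 3 control samples came from mice that carried floxed *Dnm1l* alleles (label Control f/f). The 3 miDrp1KO samples came from mice with floxed *Dnm1l* together with HSA-MerCreMer, a Cre recombinase that tamoxifen activates and that the human skeletal actin promoter drives in muscle fibres, so cells of the muscle other than fibres keep the gene. Per the study's methods, controls and miDrp1KO mice alike received tamoxifen at 3 months of age on 4 days, and RNA was taken 3 weeks after the deletion. All 6 were on normal chow. The control genotype names no Cre (the methods give flox/+ or flox/flox), so that effects of the Cre itself cannot be told apart from those of the deletion.

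Library totals ran from 13989588 to 62042255 counts in control and from 20028624 to 28829756 counts in miDrp1KO muscle. The muscle label held: 6 defining fibre markers, among them *Acta1*, *Ckm* and *Ttn*, summed to between 88440 and 267687 CPM, where CPM is the count scaled to a common library size after normalization between libraries. Of these 6 markers 3 were lower in every miDrp1KO library than in every control. So were 5 of 8 fast fibre and 3 of 6 adipose markers, against 10.3% of all genes tested. *Myh4* and *Tnnt3* are on both fibre lists and were counted among the 3 and again among the 5. The part of these markers in the results was not tested. The libraries differed in slow fibre markers. The summed level of 8 slow fibre markers was 479.7, 72.9 and 106.9 CPM in control replicates 1, 2 and 3 and 99.5, 793.5 and 713 CPM in miDrp1KO replicates 1, 2 and 3. Ribosomal RNA genes took from 1.48 to 24.4% of the counts, and the normalization factor of miDrp1KO replicate 2 (1.42) was the highest, against 0.840 to 1.04 in the other 5 libraries. In bulk muscle, fewer fibres of a type and less RNA per fibre cannot be told apart.

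The deleted gene was measured first. *Dnm1l* was at 156, 114.0 and 140.3 CPM in control replicates 1, 2 and 3 and at 70.6, 81.3 and 66.2 CPM in miDrp1KO replicates 1, 2 and 3. In edgeR's quasi-likelihood fit this came to −0.91 on the log2 scale (standard error, SE, 0.18), where the adjusted p was 0.362, and DESeq2 gave an adjusted p of 0.00534.

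Of the 9 uniporter and exchange genes, 0 had an adjusted p under 0.05 in the comparison of miDrp1KO with control muscle by edgeR's quasi-likelihood test, where 0.0121% of all genes tested did (2 of 16483). DESeq2 called 0 of the 8 to which it gave an adjusted p, all but *Slc8b1*, against 0.700% of all genes with one. At an unadjusted p under 0.05 there were 2, *Letm1* and *Vdac1*, both lower in miDrp1KO muscle, whereas 6.22% of all genes were lower and 4.68% were higher at that level. The same 2 genes were those with every miDrp1KO library below every control library, which held for 10.3% of all genes, and 0 lay wholly above control, against 7.67% of all genes. The log2 fold change was negative in 7 and positive in 2 of the 9 genes, with a median of −0.20 beside 0.02 over all genes tested.

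**Figure D1:**
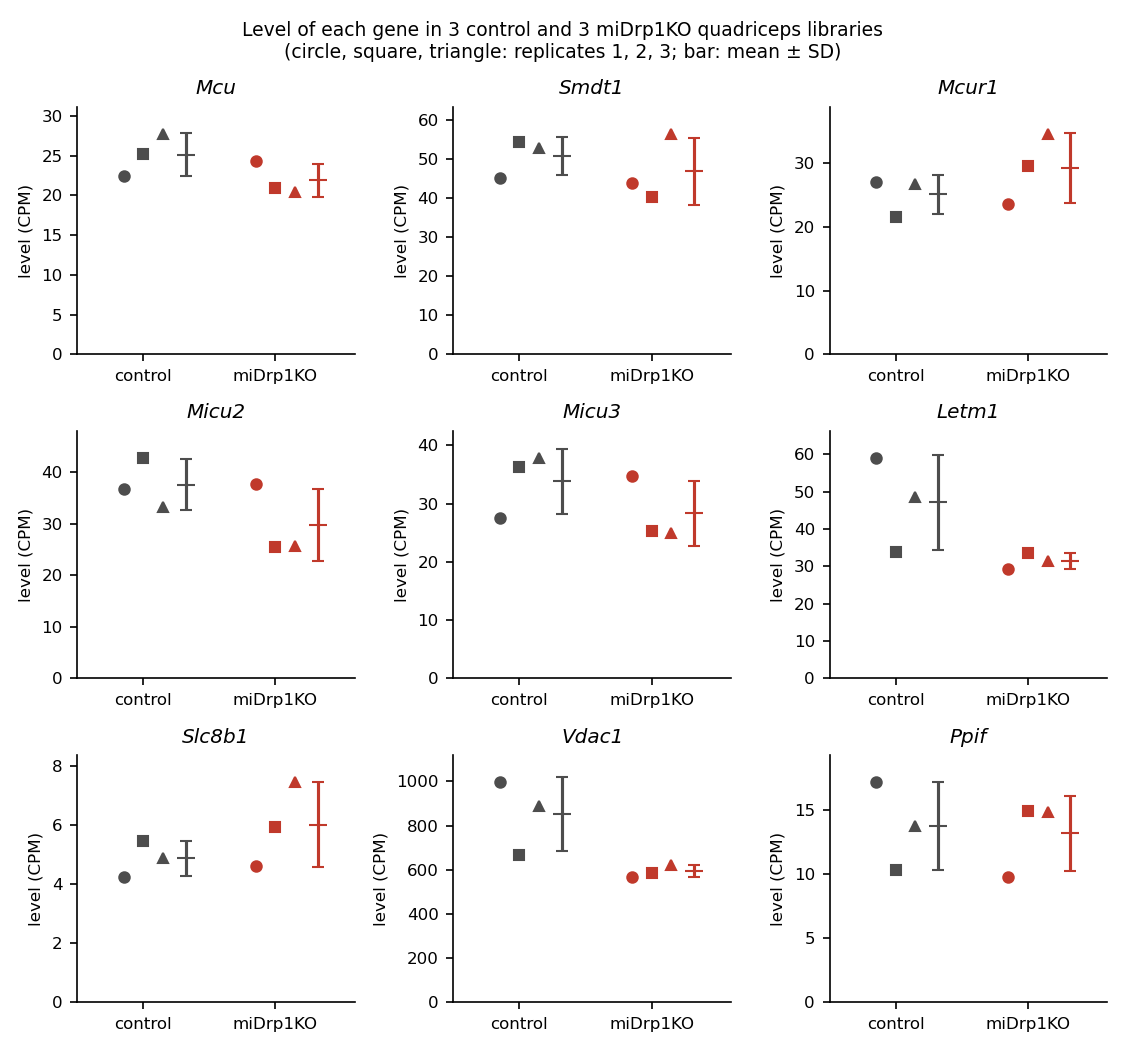
Level in CPM (vertical axes, from 0) of the 9 genes in each control (grey) and miDrp1KO (red) library, with the mean ± SD of 3 libraries beside the points. In *Letm1* and *Vdac1* the red points lie under all grey points, for *Letm1* by a narrow margin (33.6 against 33.7 CPM), and in the other 7 genes the groups overlap.

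*Vdac1* (Entrez 22333, chromosome 11 of GRCm38, 52360851 to 52389397, plus strand) encodes the main channel for ions and metabolites in the outer mitochondrial membrane, and the study used VDAC protein as the mark of its mitochondrial fractions. Levels were 999.5, 668 and 889 CPM in control replicates 1, 2 and 3. They were 568, 588 and 622 CPM in miDrp1KO replicates 1, 2 and 3. The miDrp1KO libraries lay close together, whereas control replicate 2 was well below the other controls. Control muscle averaged 852 ± 169 CPM and miDrp1KO muscle 593 ± 27.2 CPM (SD, n = 3 each), a difference of −30.5% (two-sided exact permutation test, p = 0.1, which is the lowest p that 3 against 3 libraries can give). The log2 fold change, miDrp1KO over control, was −0.52 (SE 0.22, 95% interval −1.01 to −0.04, unadjusted p = 0.0363 and adjusted p = 0.432 from edgeR). Without control replicate 1, the library with the highest *Vdac1*, the log2 fold change was −0.37 and the unadjusted p from edgeR 0.168.

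*Letm1* (Entrez 56384, chromosome 5, 33739673 to 33782717, minus strand) encodes an inner membrane protein with EF-hands that has been described as a calcium/proton and as a potassium/proton exchanger. Levels were 59.1, 33.7 and 48.6 CPM in control replicates 1, 2 and 3 and 29.3, 33.6 and 31.3 CPM in miDrp1KO replicates 1, 2 and 3. As for *Vdac1*, control replicate 1 was highest, control replicate 2 lay next to the miDrp1KO libraries, and the miDrp1KO libraries differed little. The means were 47.1 ± 12.8 CPM (SD, n = 3) and 31.4 ± 2.16 CPM (SD, n = 3), a difference of −33.4% (two-sided exact permutation test, p = 0.1). The log2 fold change was −0.59 (SE 0.20, 95% interval −1.03 to −0.15, unadjusted p = 0.0138 and adjusted p = 0.390 from edgeR). It was −0.37 without control replicate 1, with an unadjusted p of 0.0959 from edgeR.

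The separation of the groups depended on the normalization. The lowest control level divided by the highest miDrp1KO level was 1.003 for *Letm1* and 1.074 for *Vdac1* with TMM. It was 0.986 and 1.056 with RLE, 0.921 and 0.965 with upper quartile normalization, and 0.694 and 0.787 with library totals alone, so that *Letm1* overlapped in each of these 3 and *Vdac1* in the last 2. This comparison was added after the values were seen. In direction, *Letm1* and *Vdac1* were lower in miDrp1KO muscle in each of the 16 alternative settings that were fitted. *Letm1* had an unadjusted p under 0.05 in 15 of them and *Vdac1* in 9, and neither had an adjusted p under 0.05 in any.

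**Figure D2:**
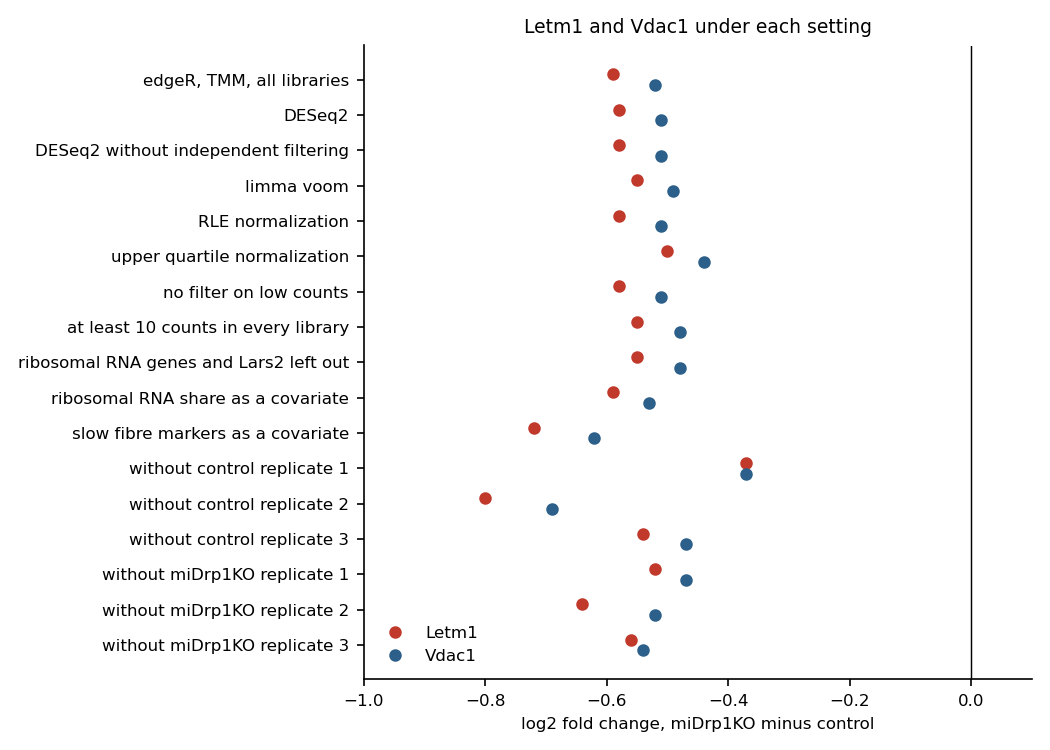
Log2 fold change of *Letm1* (red) and *Vdac1* (blue) in miDrp1KO relative to control muscle (horizontal axis) under edgeR with TMM on all libraries and under 16 other settings (rows). All points lie left of 0, from −0.80 to −0.37 for *Letm1* and from −0.69 to −0.37 for *Vdac1*.

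The promoter windows of both genes are shown because they were the 2 with separate groups, and that of *Smdt1* because it held a cAMP response element, cAMP signalling being a subject of the study. Windows run from 250 bases before to 50 after a start site in RefSeq on GRCm38.p6, 5′ to 3′ on the gene's strand, with motif matches in capitals. That site need not be the outermost end of the gene: the windows of *Mcu* and *Ppif* and the second of *Vdac1* lie wholly inside the gene bounds given here. Windows were at hand for 7 of the 9 genes, *Mcu*, *Smdt1*, *Mcur1*, *Micu2*, *Letm1*, *Vdac1* and *Ppif*, and not for *Micu3* and *Slc8b1*.
*Letm1*, chr5:33782668-33782967, minus strand: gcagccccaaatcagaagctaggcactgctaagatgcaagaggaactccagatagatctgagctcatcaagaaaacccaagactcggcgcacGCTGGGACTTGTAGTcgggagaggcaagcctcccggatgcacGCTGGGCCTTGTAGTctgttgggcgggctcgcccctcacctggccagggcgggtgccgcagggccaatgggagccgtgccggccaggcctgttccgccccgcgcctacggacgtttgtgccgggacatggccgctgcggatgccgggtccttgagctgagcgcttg
*Vdac1*, chr11:52360601-52360900, plus strand: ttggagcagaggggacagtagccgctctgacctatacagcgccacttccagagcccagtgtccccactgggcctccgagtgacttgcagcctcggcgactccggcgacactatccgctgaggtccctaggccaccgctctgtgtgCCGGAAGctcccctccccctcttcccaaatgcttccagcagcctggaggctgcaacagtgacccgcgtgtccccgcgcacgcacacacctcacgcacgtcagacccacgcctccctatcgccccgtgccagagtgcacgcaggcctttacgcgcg
*Smdt1*, chr15:82345796-82346095, plus strand: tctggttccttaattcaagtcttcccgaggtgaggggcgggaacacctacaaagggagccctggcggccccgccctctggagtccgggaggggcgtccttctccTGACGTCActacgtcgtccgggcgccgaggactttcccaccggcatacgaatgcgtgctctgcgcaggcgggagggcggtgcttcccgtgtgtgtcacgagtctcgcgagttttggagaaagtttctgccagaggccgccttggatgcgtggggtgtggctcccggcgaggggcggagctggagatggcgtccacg

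Motifs were searched on both strands in 32851 such windows. The *Letm1* window held 2 matches to the ZNF143 consensus, both on the opposite strand, and 0.183% of all windows held at least 1. This motif was added to the search after the sequence was seen. The *Vdac1* window held 1 GABP core (CCGGAAG, in 8.86% of all windows), as did that of *Ppif*, and a second *Vdac1* window further downstream held none of the motifs. The *Smdt1* window held 1 cAMP response element (TGACGTCA, in 1.79% of all windows), the letters bound by CREB. The *Micu2* window held 1 YY1 match (AANATGGCG, in 2.38% of all windows). The consensus of NRF1 (in 4.60% of all windows) and that of ERR (TCAAGGTCA, in 0.423%) were in none of the 8 windows of these genes, and the windows of *Mcu* and *Mcur1* held none of the 6 motifs.

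*Mcu* (Entrez 215999, chromosome 10, 59446984 to 59617409, minus strand) encodes the pore-forming subunit of the uniporter. Levels were 22.4, 25.2 and 27.8 CPM in control replicates 1, 2 and 3 and 24.3, 21.0 and 20.4 CPM in miDrp1KO replicates 1, 2 and 3. The lowest control lay below miDrp1KO replicate 1, and the other 2 miDrp1KO libraries were below every control. The means were 25.1 ± 2.70 CPM (SD, n = 3) and 21.9 ± 2.07 CPM (SD, n = 3), and the log2 fold change was −0.20 (SE 0.16, 95% interval −0.55 to 0.14, adjusted p = 0.668 from edgeR). It was −0.10 without control replicate 3 and −0.11 with the slow fibre markers as a covariate. The interval reaches from 0.684 to 1.10 times the control level, so that a loss of *Mcu* transcript to below 0.684 of control lay outside it.

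*Smdt1* (Entrez 69029, chromosome 15, 82346046 to 82349062, plus strand) encodes EMRE, the small single-pass protein that joins the pore to its gatekeepers and that the channel needs to conduct. Levels were 45.2, 54.4 and 52.9 CPM in control replicates 1, 2 and 3 and 43.9, 40.3 and 56.6 CPM in miDrp1KO replicates 1, 2 and 3. The highest and the lowest library were both miDrp1KO, and the log2 fold change was −0.12 (95% interval −0.50 to 0.27, adjusted p = 0.845 from edgeR). It ran from −0.25 without miDrp1KO replicate 3 to −0.01 without miDrp1KO replicate 2. In GENCODE, 245 bases of *Smdt1* exons are shared with *Pheta2* on the same strand, and how reads on shared bases were counted is not given in the sources used here. *Mcur1* (Entrez 76137, chromosome 13, 43538406 to 43560344, minus strand), whose product supports uniporter assembly, was at 27.0, 21.5 and 26.7 CPM in control replicates 1, 2 and 3. It was at 23.5, 29.5 and 34.6 CPM in miDrp1KO replicates 1, 2 and 3, with 2 miDrp1KO libraries above every control. Its log2 fold change was 0.22 (95% interval −0.18 to 0.61, adjusted p = 0.689 from edgeR).

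In both gatekeeper genes, as in *Mcu*, miDrp1KO replicates 2 and 3 were below every control and replicate 1 was not. The share of all genes with this pattern is not given here, so whether it is particular to these genes is not known. *Micu2* (Entrez 68514, chromosome 14, 57916280 to 57999296, minus strand) encodes an EF-hand protein that helps to hold the pore shut at low calcium. It was at 36.8, 42.9 and 33.2 CPM in control replicates 1, 2 and 3 and at 37.8, 25.6 and 25.8 CPM in miDrp1KO replicates 1, 2 and 3. Thus miDrp1KO replicate 1 lay within the control range and replicates 2 and 3 below it. The means were 37.6 ± 4.92 CPM and 29.7 ± 6.99 CPM (SD, n = 3 each), and the log2 fold change was −0.34 (SE 0.19, 95% interval −0.76 to 0.08, unadjusted p = 0.104, adjusted p = 0.549 from edgeR). Without miDrp1KO replicate 1 it was −0.52 (unadjusted p = 0.0125 and adjusted p = 0.175 from edgeR), without miDrp1KO replicate 3 −0.23, and with the slow fibre markers as a covariate −0.20.

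*Micu3* (Entrez 78506, chromosome 8, 40307438 to 40388782, plus strand) encodes an EF-hand protein of the same family known to enhance uptake, found mainly in neurons and muscle. It was at 27.5, 36.2 and 37.9 CPM in control replicates 1, 2 and 3 and at 34.8, 25.3 and 25.0 CPM in miDrp1KO replicates 1, 2 and 3. Here too replicates 2 and 3 of miDrp1KO were below every control while replicate 1 was not. The log2 fold change was −0.26 (95% interval −0.67 to 0.16, adjusted p = 0.645 from edgeR), and −0.41 without miDrp1KO replicate 1, but −0.15 without control replicate 3 and −0.16 without miDrp1KO replicate 3. It was −0.08 with the slow fibre markers as a covariate. GENCODE places 202 bases of *Micu3* exons opposite *Fgf20*, and whether reads were counted by strand is not given in the sources used here.

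The libraries with low gatekeeper and *Mcu* levels, miDrp1KO replicates 2 and 3, had the highest slow fibre markers, at 793.5 and 713 CPM summed over all 8. All 8 had a positive log2 fold change (0.63 to 2.35), with 0 at an unadjusted p under 0.05 from edgeR. Fast fibre markers summed to between 125200 and 144748 CPM in control, 108506 CPM in miDrp1KO replicate 1, and 60006 and 67462 CPM in miDrp1KO replicates 2 and 3. *Mcur1* and *Slc8b1* were highest in the same 2 libraries. Control replicate 1, with 479.7 CPM of slow fibre markers, had *Micu2* at 36.8 CPM, between the other controls, and the lowest *Micu3* of the 3. Among the 3 controls, the slow fibre sum was 72.9, 106.9 and 479.7 CPM in rising order. *Letm1* (33.7, 48.6 and 59.1 CPM) and *Vdac1* (668, 889 and 999.5 CPM) stood in that order. So did *Mcur1* (21.5, 26.7 and 27 CPM) and *Ppif* (10.3, 13.7 and 17.2 CPM). *Smdt1* (54.4, 52.9 and 45.2 CPM) and *Slc8b1* (5.47, 4.91 and 4.26 CPM) stood in the reverse order, and *Mcu*, *Micu2* and *Micu3* in neither. The miDrp1KO libraries had a slow fibre sum of 99.5, 713 and 793.5 CPM. *Letm1* (29.3, 31.3 and 33.6 CPM) and *Ppif* (9.77, 14.8 and 14.9 CPM) stood in the order of that sum. *Vdac1* (568, 622 and 588 CPM) and *Mcur1* (23.5, 34.6 and 29.5 CPM) did not, nor did *Mcu*, *Smdt1*, *Micu3* and *Slc8b1*. *Micu2* (37.8, 25.8 and 25.6 CPM) stood in the reverse order. The share of all genes in either order is not given here. Beyond the fit with slow fibre markers as a covariate, their part in these values was not tested. For *Letm1* and *Vdac1* that fit gave log2 fold changes of −0.72 and −0.62, further from 0 than without the covariate. It gave 0.05 for *Mcur1* and −0.33 for *Ppif* (unadjusted p = 0.0829 from edgeR), against 0.22 and −0.06 without the covariate.

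**Figure D3:**
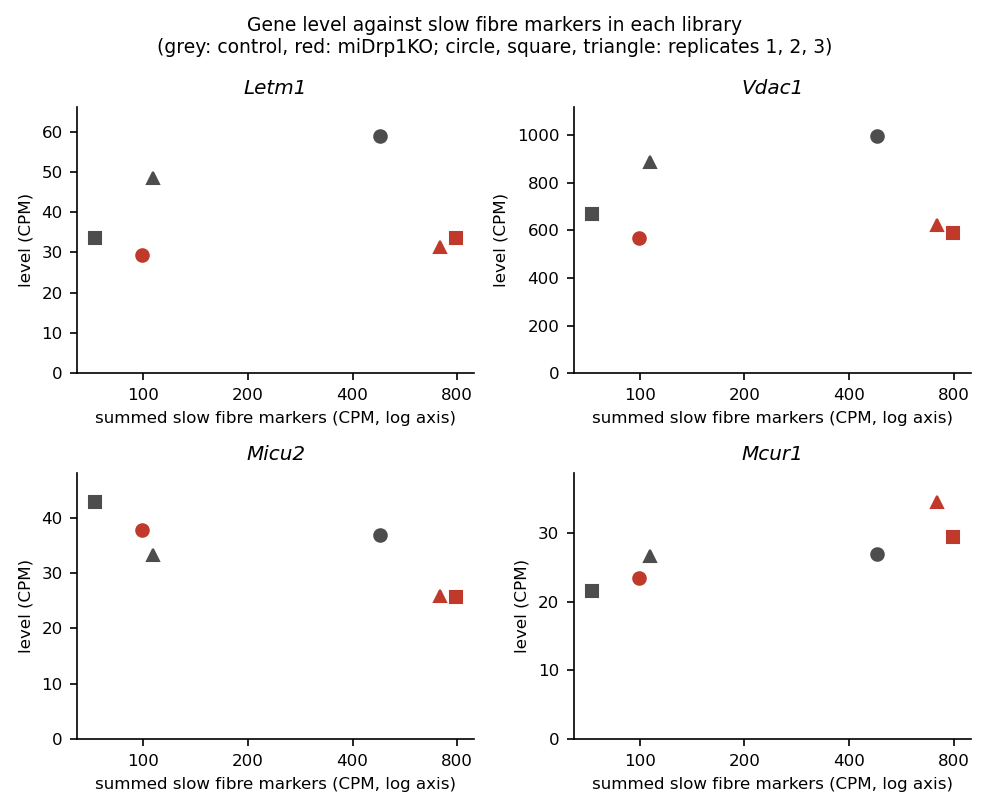
Level in CPM (vertical axes) of *Letm1*, *Vdac1*, *Micu2* and *Mcur1* in each library against the summed level of 8 slow fibre markers (horizontal log axes), control in grey and miDrp1KO in red. The red points of *Letm1* and *Vdac1* sit at 29.3 to 33.6 and 568 to 622 CPM. The grey points of both genes and of *Mcur1*, and the red points of *Letm1*, stand in the order of the slow marker sum. The grey points of *Micu2* do not. *Micu2* was at 37.8 CPM in the miDrp1KO library with low slow markers and at 25.6 and 25.8 CPM in the 2 with high ones.

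*Slc8b1* (Entrez 170756, chromosome 5, 120511168 to 120534024, plus strand) encodes NCLX, the sodium/calcium exchanger that carries calcium out of the matrix. It had from 75 to 295 counts per library, the fewest of the 9 genes. Levels were 4.26, 5.47 and 4.91 CPM in control replicates 1, 2 and 3 and 4.62, 5.96 and 7.49 CPM in miDrp1KO replicates 1, 2 and 3. Thus 2 of 3 miDrp1KO libraries were above every control, and the log2 fold change was 0.31 (SE 0.23, 95% interval −0.20 to 0.81, adjusted p = 0.655 from edgeR). *Slc8b1* and *Mcur1* were the 2 genes with a positive log2 fold change, and both kept that sign in each of 16 alternative settings. The size moved: *Mcur1* was at 0.05 with the slow fibre markers as a covariate and at 0.10 without control replicate 2 or without miDrp1KO replicate 3, and *Slc8b1* was at 0.15 without miDrp1KO replicate 3. Without miDrp1KO replicate 1 they were at 0.37 and 0.48.

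*Ppif* (Entrez 105675, chromosome 14, 25693574 to 25700468, plus strand) encodes cyclophilin D, the matrix isomerase that sensitizes the permeability transition pore to calcium. Levels were 17.2, 10.3 and 13.7 CPM in control replicates 1, 2 and 3 and 9.77, 14.9 and 14.8 CPM in miDrp1KO replicates 1, 2 and 3. The groups were interleaved, with a log2 fold change of −0.06 (95% interval −0.57 to 0.44, adjusted p = 0.946 from edgeR). Its sign turned with upper quartile normalization (0.03), without control replicate 1 (0.15) and without miDrp1KO replicate 1 (0.13). GENCODE lists an antisense gene, *Ppifos*, opposite 921 bases of *Ppif* exons.

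**Figure D4:**
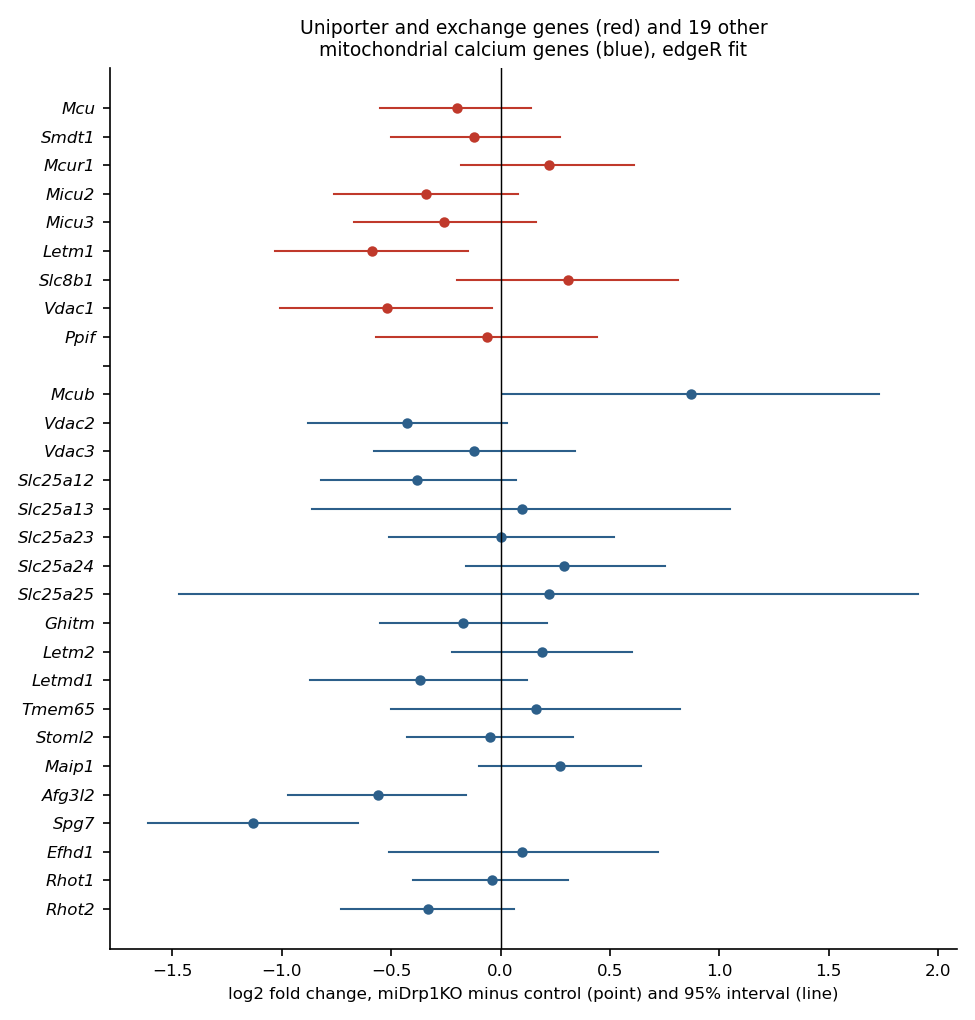
Log2 fold change in miDrp1KO relative to control muscle (points) with its 95% interval (lines) from edgeR, for the 9 uniporter and exchange genes (red) and 19 other mitochondrial calcium genes (blue). Among the red lines, those of *Letm1* and *Vdac1* do not cross 0, and among the blue lines those of *Mcub*, *Afg3l2* and *Spg7*.

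To compare levels between genes, CPM were divided by the length of all exons of a gene in GENCODE M21 (RPKM), which is approximate because exons not used in muscle count towards the length. Per length, *Vdac1* was far above the other genes, at 325 ± 64.4 RPKM (SD, n = 3) in control muscle. *Smdt1* followed at 34.4 ± 3.32 RPKM and *Micu2* at 12.2 ± 1.59 RPKM (SD, n = 3 each). Next came *Micu3* (5.50 RPKM), *Letm1* (4.88), *Mcu* (3.62), *Mcur1* (3.54) and *Ppif* (2.72), each of which overlapped its neighbour in this order over the control libraries. *Slc8b1* was lowest, at 1.41 ± 0.174 RPKM (SD, n = 3), with its highest control library (1.58) below the lowest of *Ppif* (2.04). In miDrp1KO muscle the first 3 and the last places were the same, at 226, 31.7, 9.64 and 1.74 RPKM. There *Mcur1* (4.13 RPKM) stood above *Letm1* (3.25) and *Mcu* (3.16) in the mean, with overlap (*Mcur1* 3.32 in replicate 1, *Letm1* 3.48 in replicate 2, *Mcu* 3.50 in replicate 1), and *Slc8b1* in miDrp1KO replicate 3 (2.16) was above *Ppif* in replicate 1 (1.94).

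Transcripts of the channel subunits were compared by dividing the counts of each subunit gene by those of *Mcu* in the same library, which needs no normalization between libraries. The ratios are not corrected for gene length and do not give the make-up of the channel in protein. The *Smdt1* to *Mcu* ratio was 2.02, 2.15 and 1.90 in control replicates 1, 2 and 3 and 1.81, 1.92 and 2.77 in miDrp1KO replicates 1, 2 and 3. The *Micu2* to *Mcu* ratio was 1.64, 1.70 and 1.19 in control and 1.56, 1.22 and 1.27 in miDrp1KO replicates 1, 2 and 3. For *Micu3* the ratio ran from 1.23 to 1.44 in control and from 1.20 to 1.43 in miDrp1KO muscle. These 3 ratios overlapped between the groups and differed by −0.16 to 0.07 on the log2 scale (two-sided exact permutation tests, p from 0.5 to 0.9). The *Mcur1* to *Mcu* ratio was 1.21, 0.853 and 0.961 in control and 0.970, 1.40 and 1.70 in miDrp1KO replicates 1, 2 and 3, a log2 difference of 0.41 (two-sided exact permutation test, p = 0.2). Leaving out single libraries moved it from 0.23 (without miDrp1KO replicate 3) to 0.63 (without miDrp1KO replicate 1). The other 3 differences ran from −0.32 to −0.06 for *Micu2*, from −0.14 to −0.01 for *Micu3* and from −0.12 to 0.19 for *Smdt1*, whose sign turned without miDrp1KO replicate 3.

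The ratio that separated the groups was that of *Mcub*, which encodes a paralogue of MCU that lowers channel activity when it enters the pore. It was 0.0348, 0.0303 and 0.0338 in control replicates 1, 2 and 3 and 0.0891, 0.0542 and 0.0646 in miDrp1KO replicates 1, 2 and 3. The log2 difference was 1.04 (two-sided exact permutation test, p = 0.1, as low as this test can go, and 0.50 after adjustment over the 5 ratios). These ratios rest on 16, 10 and 56 counts of *Mcub* in control and 44, 46 and 27 in miDrp1KO libraries. In CPM, *Mcub* was at 0.806 in control and 1.52 in miDrp1KO muscle on average, with a log2 fold change of 0.87 (95% interval 0.01 to 1.73, adjusted p = 0.454 from edgeR). *Mcub* is also expressed in immune cells, and 6 macrophage markers summed to 121 to 212 CPM in control and 151 to 188 CPM in miDrp1KO libraries, overlapping in sum. Of the 6, 3 had a positive and 3 a negative log2 fold change, and 2, *C1qa* and *Cd68*, were higher in every miDrp1KO library than in every control, against 7.67% of all genes. Their part in the result was not tested.

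**Figure D5:**
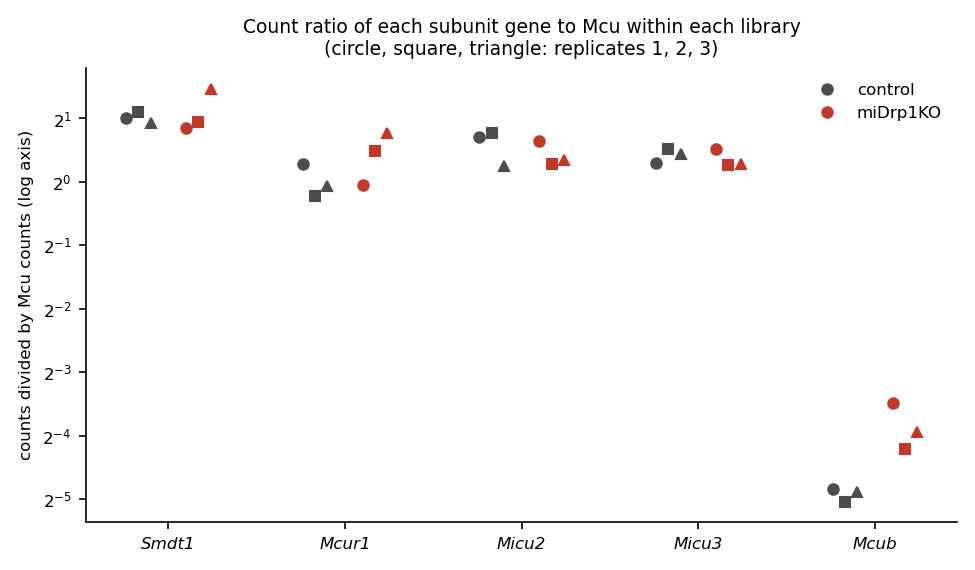
Counts of 5 subunit genes divided by the counts of *Mcu* in the same library (vertical log axis), control in grey and miDrp1KO in red. The ratios of *Smdt1*, *Mcur1*, *Micu2* and *Micu3* overlap between the groups, and the 3 red points of *Mcub* (0.0542 to 0.0891) lie above its 3 grey points (0.0303 to 0.0348).

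The 9 genes were also set against 20 other nuclear genes for mitochondrial proteins, as the log2 CPM of each gene minus the mean log2 CPM of the 20. That mean was 7.61, 7.27 and 7.40 in control replicates 1, 2 and 3 and 7.22, 7.17 and 7.51 in miDrp1KO replicates 1, 2 and 3. Relative to it, *Vdac1* stood at 2.36, 2.11 and 2.40 in control and 1.93, 2.02 and 1.77 in miDrp1KO replicates 1, 2 and 3, a difference of −0.38 with no overlap. The exact permutation test gave p = 0.1, the smallest possible, and 0.45 after adjustment over the 9 genes. *Letm1* differed by −0.43 and overlapped, with control replicate 2 at −2.20 and miDrp1KO replicate 2 at −2.10. *Slc8b1* and *Mcur1* differed by 0.40 and 0.33, and *Mcu*, *Smdt1* and *Ppif* by −0.07, 0.00 and 0.07, all with overlap. The differences of *Micu2* and *Micu3* were −0.23 and −0.14, again with overlap. When single libraries were left out, *Vdac1* ran from −0.47 to −0.31, *Letm1* from −0.57 to −0.32, *Mcur1* from 0.25 to 0.44 and *Slc8b1* from 0.22 (without control replicate 1) to 0.56. *Micu2* ran from −0.46 (without miDrp1KO replicate 1) to −0.04 (without miDrp1KO replicate 3). The sign turned for *Micu3* (−0.37 without control replicate 1 to 0.05 without miDrp1KO replicate 3), *Mcu* (−0.25 to 0.08, the same 2 libraries), *Smdt1* (−0.17 to 0.13, without control replicates 1 and 2) and *Ppif* (−0.10 to 0.23, without miDrp1KO replicates 2 and 1).

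Of the 19 other mitochondrial calcium genes, all of which passed the filter, edgeR gave 0 an adjusted p under 0.05, 2 were lower and 1 was higher at an unadjusted p under 0.05, and their median log2 fold change was −0.04. Over all genes 6.22% were lower and 4.68% higher at that level, with a median of 0.02. The 2 lower ones, *Spg7* and *Afg3l2*, encode subunits of the m-AAA protease, which processes the EMRE protein before it joins the channel. *Spg7* was at 79.0, 59.7 and 70.7 CPM in control and 42.6, 29.2 and 24.2 CPM in miDrp1KO replicates 1, 2 and 3, a log2 fold change of −1.13 (95% interval −1.61 to −0.65, unadjusted p = 2.99e-04 and adjusted p = 0.362 from edgeR). *Afg3l2* was at 68.2, 44.2 and 59.0 CPM and at 36.9, 42.8 and 36.4 CPM, a log2 fold change of −0.56 (unadjusted p = 0.0110 and adjusted p = 0.382 from edgeR). *Maip1*, whose product assists this protease in EMRE biogenesis, was at 8.62 to 9.79 CPM in control and 10.4 to 12.0 CPM in miDrp1KO muscle (log2 fold change 0.27, adjusted p = 0.575 from edgeR).

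*Vdac2* and *Vdac3* encode the other outer membrane channels of the family. *Vdac2* was at 282, 334 and 269 CPM in control and 257, 170 and 232 CPM in miDrp1KO replicates 1, 2 and 3, without overlap (log2 fold change −0.43, adjusted p = 0.488 from edgeR). *Vdac3* had a log2 fold change of −0.12 and overlapped, and whether the 3 VDAC genes differed from each other was not tested. Per length in control muscle, *Vdac1* at 325 RPKM stood above *Vdac2* at 61.9 RPKM and *Vdac3* at 20.6 RPKM, with no overlap between them. Log2 fold changes of the calcium-sensitive carriers were −0.38 for *Slc25a12*, 0.10 for *Slc25a13*, 0.00 for *Slc25a23*, 0.29 for *Slc25a24* and 0.22 for *Slc25a25*, all with overlap. Those of *Letm2* and *Letmd1*, relatives of *Letm1*, were 0.19 and −0.37, of *Ghitm* −0.17 without overlap (248 to 275 CPM in control, 229 to 238 CPM in miDrp1KO), of *Tmem65*, linked to NCLX, 0.16, of *Stoml2* −0.05, of *Efhd1* 0.10, and of *Rhot1* and *Rhot2*, which carry mitochondria along microtubules, −0.04 and −0.33.

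Mitochondrial enzymes known to respond to calcium were counted as a list of 11 genes for pyruvate, isocitrate, oxoglutarate and glycerol phosphate dehydrogenases and their regulators, of which the glycerol phosphate enzyme senses calcium outside the matrix. In 9 of the 11 the log2 fold change was negative, with a median of −0.28, and 3 were lower at an unadjusted p under 0.05 from edgeR. Over all genes tested, 7911 of 16483 were negative, the median was 0.02 and 6.22% were lower at that level. These 3 were *Ogdh* (−0.62), *Pdha1* (−0.47) and *Pdpr* (−0.49), with adjusted p from 0.407 to 0.442. Of 13 genes for contacts between the reticulum and mitochondria, 8 were negative, with a median of −0.04, and 3 were lower at an unadjusted p under 0.05, beside the same 6.22% and median of 0.02 over all genes. They were *Mfn2*, which tethers and fuses mitochondria (−0.92), *Pacs2* (−0.40) and *Bcap31* (−0.37), with adjusted p from 0.362 to 0.409. Among the 20 mitochondrial genes used as reference, 14 were negative, with a median of −0.11, and 2 were lower at an unadjusted p under 0.05 from edgeR. In 5 of the 20 every miDrp1KO library was below every control, against 10.3% of all genes tested. The 3 with the lowest p were *Sdha* (−0.87), *Hspd1* (−0.51) and *Timm44* (−0.37). None of these lists was tested as a set.

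The genes with the pattern most like *Mcu* over the 6 libraries were found by scaling log2 CPM of each gene to unit SD and taking the mean absolute difference from *Mcu*. Of 13563 genes compared, the nearest were *Ebag9* (0.0944 SD), *Col19a1*, *Pias2*, *Rab6a* and *Ppat* (0.122 SD). Among the other 8 uniporter and exchange genes, *Micu3* was nearest at 0.224 SD, followed by *Micu2* at 0.590 SD, and *Mcur1* and *Ppif* were farthest, at 1.52 and 1.56 SD. These distances come from 6 points that share normalization and are given as a description.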

How the data were processed

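Total RNA of quadriceps muscle was sequenced after ribosomal RNA depletion with a stranded kit, and raw counts per gene were deposited by the authors for each library, aligned to GRCm38 and counted with Rsubread (strand, multimapping and overlap settings are not given in the sources used here). Per the labels' processing notes they used DESeq2 1.30.0. Libraries were grouped by labelled genotype and numbered within each group. Counts ran from 13989588 to 62042255 per library, and *Slc8b1*, the lowest member, had at least 75. The test was edgeR 4.0.16 under R 4.3.3, a robust quasi-likelihood fit after TMM normalization and filterByExpr, with p-values adjusted by Benjamini-Hochberg over 16483 genes (threshold 0.05). No library was left out, and Spearman correlations between libraries ran from 0.960 to 0.985. Ratios to *Mcu* used counts plus 0.5, and log2 CPM a prior count of 2. Single values were compared by two-sided exact permutation tests over 20 splits. Alternatives were DESeq2 1.42.0 on the same genes, limma 3.58.1 (voom), RLE and upper quartile normalization, other filters, ribosomal RNA genes and *Lars2* left out, 2 covariates and leaving out each replicate. The genes, lists and tests were chosen with earlier results of these data known. The genes named were the 9 members, *Dnm1l*, all reported of the wider calcium list, the 3 with the lowest p in the dehydrogenase, contact and reference lists, and the 5 most like *Mcu*. The cell type markers named were chosen after their values were seen. An item is not reported here. Libraries were sequenced in a pair of pools, and which library was in which is not given in the sources used here. The study gives 3 mice per group for its RNA-seq of this muscle, whereas the labels number the libraries without naming animals. The p-values measure the spread between these libraries.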

Additional observations from a re-analysis of the deposited data

How the results depend on the processing

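Across 16 alternative settings, 8 of the 9 genes kept the sign of their log2 fold change, and 0 of the 9 had an adjusted p under 0.05 in any. *Ppif* changed sign with upper quartile normalization (0.03) and ran from −0.25 to 0.15 when each replicate was left out. The number of the 9 genes lower at an unadjusted p under 0.05 was 1 with upper quartile normalization, with at least 10 counts in every library and when the share of ribosomal RNA was a covariate. It ran from 0 (without control replicate 1) to 2 when each replicate was left out, and without miDrp1KO replicate 1 the 2 were *Letm1* and *Micu2*. The cause was not tested. In edgeR's fit with TMM on all libraries, 6.22% of all genes were lower at that level. That share is not given here for the other settings, so whether these counts moved with it is not known. *Dnm1l* passed the adjusted threshold with DESeq2 (−0.90), also without independent filtering (−0.90), and in none of the other 14 settings. DESeq2 called 55 of all genes, against 2 with edgeR. Upper quartile normalization moved the median log2 fold change of all genes from 0.02 to 0.11. With no filter on low counts the median was also 0.11, but over 26457 genes in place of 16483. *Slc8b1*, with 75 to 295 counts, and *Mcub*, with 10 to 56, had the fewest counts among the genes set out by library. The part of depth in their spread was not tested. No paired analysis was possible because control and miDrp1KO samples share no numbers in the labels, and those used here only name samples.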
